A study of Sus scrofa domesticus with 8 samples.

Results

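The genes described here are 6 interferon-induced genes, IFIT1, IFIT3, MX2, CMPK2, OAS1 and DDX60, out of 10904 named genes on the array. They were chosen by symbol in the platform annotation, and all 6 had a feature, the probe set that stands for a transcript. Earlier results of these data were known at the choice, so counts set beside all features below are descriptions only. DDX60 had 2 features, and the one with the higher mean over the 8 arrays was used. That feature has no single gene identifier in the annotation, unlike those of the other members. The OAS1 feature carries its symbol repeated in the annotation. The cells were granulosa cells of the pig ovary, which nourish the oocyte and make steroid hormones inside the follicle, taken after slaughter from crossbred Landrace gilts. The study used 43 gilts, whose age was 170 days and weight 98 kg at the median. The labels do not say how many gilts stand behind an array or whether cells were pooled. Affymetrix whole-transcript arrays, 8 in number, measured the RNA, with 2 each for cells at 0 h, before culture, and after 48 h, 96 h and 144 h in culture. The culture medium at every later time was DMEM with 2% fetal bovine serum, L-glutamine, gentamicin, penicillin and streptomycin, at 37 °C and 5% CO2. No interferon, virus or other agent is named for any group.

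Interferons are secreted proteins that cells release after sensing viral or other foreign nucleic acid. Type I interferons bind a receptor that acts through the kinases JAK1 and TYK2 on transcription factors, among them STAT2 and IRF9, which switch on a broad set of antiviral genes. The 6 genes belong to that set. IFIT1 and IFIT3 encode proteins that form complexes and act against viral RNA, and MX2 encodes a GTPase of the antiviral Mx family. CMPK2 encodes a mitochondrial nucleotide kinase, OAS1 an enzyme that makes the 2',5'-oligoadenylate signal that activates RNase L, and DDX60 a helicase linked to RNA sensing. In the annotation of the Sscrofa11.1 assembly, IFIT3 and IFIT1 are neighbouring genes, MX2 lies next to MX1, CMPK2 next to RSAD2 and OAS1 next to OAS2. These positions were used only for the order of genes.

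Values are log2 intensities. A difference is the mean of the 2 arrays at the later time minus the mean of the 2 at the earlier one, with its standard error (SE) from a limma model over all 8 arrays. A gene is called where limma's p, adjusted over the whole table of 27558 features (Benjamini-Hochberg), is below 0.05. The labels leave unsaid whether both arrays of a time come from different gilts or cultures, and the p-values then measure only array-to-array spread, which may be technical. The number of arrays limits the precision. Levels of different genes are not compared, because each feature has its own probes. The lower quartile of an array lay between 3.13 and 3.25. No detection call was used, so a level near that quartile is not shown to lie above background, and a fold is given only where all arrays of both times lay above the 40th percentile of their array. The 2 arrays of a time differed most at 144 h, where the SD of their difference over all features was 0.382, against 0.162 to 0.265 at the other times. Of the 18 granulosa markers looked for, 10 had a feature, and these had a mean level of 8.23 and 8.24 on the 0 h arrays and 6.11 and 6.32 on the 144 h arrays. They did not move alike. At 144 h, 8 were called lower than at 0 h and 1 higher, against 16.7% and 15.4% of all features. The 1 was HSD3B1, at 3.62 and 3.17 at 0 h and 9.81 and 9.91 at 144 h.

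**Figure D1:**
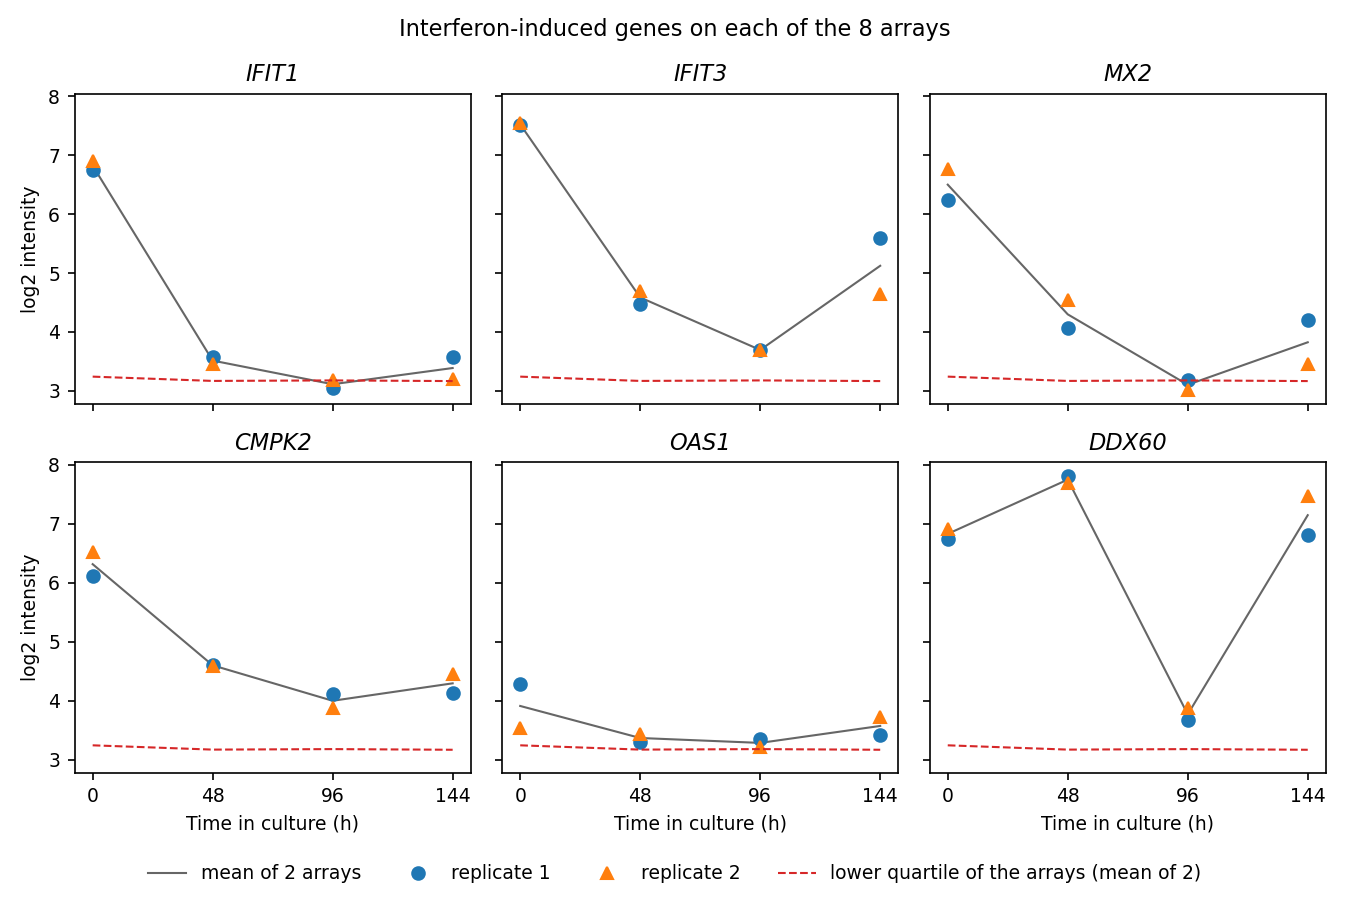
Level of each of the 6 genes on every array (log2 intensity) against time in culture (h). Points are single arrays, lines join the means of 2 arrays, and the dashed line is the lower quartile of the arrays, averaged over the 2 arrays of a time. IFIT1, IFIT3, MX2 and CMPK2 stood above all their later levels at 0 h, OAS1 stayed between 3.22 and 4.29, and DDX60 was low only at 96 h, at 3.67 and 3.87.

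In the first 48 h of culture, 4 of the 6 genes fell, 1 rose and 1 was not called. IFIT1, IFIT3, MX2 and CMPK2 fell by between 1.72 and 3.31 on the log2 scale, DDX60 rose by 0.92, and OAS1 did not pass the test. Of all features, 14.8% were called lower and 15.2% higher in this comparison. The median difference was -1.96 over the 6 genes and -0.04 over all features. On bulk samples such as these, fewer cells of a type and less RNA per cell cannot be told apart.

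IFIT1 stood at 6.75 and 6.89 on the 0 h arrays, at 3.58 and 3.45 on the 48 h arrays, at 3.05 and 3.18 on the 96 h arrays and at 3.58 and 3.20 on the 144 h arrays. Both 0 h arrays lay far above the other 6, and the levels after 0 h lay between the 22.1 and 34.5 percentile of their array, down from 77.2 and 78.2. The difference from 0 h was -3.31 ± 0.15 at 48 h (limma adjusted p = 3.47e-06), -3.71 ± 0.15 at 96 h (9.56e-07) and -3.43 ± 0.15 at 144 h (1.63e-06). No difference among the 3 later times passed the test, with 96 h minus 48 h at -0.40 ± 0.15 (limma adjusted p = 0.0821) and 144 h minus 96 h at 0.27 ± 0.15 (0.243). The 48 h to 96 h step was called without either 144 h array (0.0249), and 144 h minus 96 h without 144 h replicate 2, at 0.46 (0.0411). On 96 h replicate 1 and 144 h replicate 2 IFIT1 lay below the lower quartile.

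IFIT3, the gene next to IFIT1, measured 7.50 and 7.54 at 0 h, 4.48 and 4.69 at 48 h, 3.69 and 3.70 at 96 h and 5.60 and 4.64 at 144 h. It was highest before culture and lowest at 96 h, and the 144 h arrays stood apart from each other by 0.96. Its fall at 48 h was -2.94 ± 0.26, or 7.65-fold (limma adjusted p = 9.85e-05). A further fall followed from 48 h to 96 h, at -0.89 ± 0.26 (0.0373). IFIT3 then rose by 1.43 ± 0.26 between 96 h and 144 h (0.00703) and ended 5.27-fold below 0 h, at a difference of -2.40 ± 0.26 (0.000231). The fall from 48 h to 96 h was no longer called when any 1 of the 0 h, 48 h or 96 h arrays was left out, with adjusted p of 0.0630 to 0.160, or after median centring (0.0507). The rise to 144 h was not called without 96 h replicate 1 (0.0527) or 96 h replicate 2 (0.0507).

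MX2 measured 6.23 and 6.76 at 0 h, 4.06 and 4.54 at 48 h, 3.19 and 3.02 at 96 h and 4.20 and 3.45 at 144 h. The order of its means was 0 h, 48 h, 144 h and 96 h, and both 96 h arrays lay at or below the 25.2 percentile. MX2 fell at 48 h by 2.20 ± 0.28 (difference -2.20), or 4.59-fold (limma adjusted p = 0.000636), and stood at -3.39 ± 0.28 from 0 h at 96 h (3.26e-05). The difference from 0 h at 144 h was -2.67 ± 0.28 (0.000172). Between 48 h and 96 h it fell by 1.19 ± 0.28 (difference -1.19, adjusted p = 0.0143), a call lost without 48 h replicate 2 (0.0926), 96 h replicate 1 (0.0597) or 96 h replicate 2 (0.0914). The values at 48 h and 144 h overlapped. The rise from 96 h to 144 h, 0.72 ± 0.28 (0.109), was called without 144 h replicate 2, at 1.09 (0.0228).

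CMPK2 measured 6.11 and 6.52 at 0 h, 4.61 and 4.59 at 48 h, 4.12 and 3.88 at 96 h and 4.13 and 4.46 at 144 h. Both 0 h arrays lay above all later ones, and from 48 h on the levels lay between the 39.5 and 51.0 percentile of their array, above the lower quartile. Its fall was -1.72 ± 0.18 at 48 h, or 3.28-fold (limma adjusted p = 0.000200), and -2.02 ± 0.18 at 144 h, or 4.06-fold (6.20e-05). The step from 48 h to 96 h was -0.60 ± 0.18 (0.0358) and was not called without either 48 h array (0.134 and 0.114) or either 96 h array (0.0781 and 0.213). From 96 h to 144 h the difference was 0.30 ± 0.18 (0.287).

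OAS1 was low at every time, with 4.29 and 3.53 at 0 h, 3.29 and 3.44 at 48 h, 3.35 and 3.22 at 96 h and 3.42 and 3.72 at 144 h. Its 0 h arrays differed by 0.75, more than its mean moved between any times, and all its levels lay between the 26.0 and 45.0 percentile. The differences from 0 h were -0.54 ± 0.23 at 48 h (limma adjusted p = 0.121), -0.63 ± 0.23 at 96 h (0.0627) and -0.34 ± 0.23 at 144 h (0.329). Without 0 h replicate 2, the lower of the 0 h arrays, OAS1 was called lower at all 3 times, with adjusted p of 0.0125, 0.00520 and 0.0278. With all arrays, limma's F test over the 4 times did not call OAS1 (adjusted p = 0.165) and called the other 5 genes, against 47.5% of all features.

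DDX60 had another course. It measured 6.74 and 6.91 at 0 h, 7.81 and 7.69 at 48 h, 3.67 and 3.87 at 96 h and 6.81 and 7.48 at 144 h. The 96 h arrays stood far below the other 6, and the values at 0 h and 144 h overlapped. DDX60 rose 1.89-fold at 48 h, a difference of 0.92 ± 0.21 (limma adjusted p = 0.0111), which was not called without 0 h replicate 1 (0.0728) or 48 h replicate 1 (0.0693). It then fell by 3.98 ± 0.21 at 96 h (difference -3.98, adjusted p = 1.85e-05) and rose by 3.38 ± 0.21 at 144 h (7.05e-05). At 144 h it differed from 0 h by 0.32 ± 0.21 (0.304), and was called higher without 144 h replicate 1, at 0.65 (0.0122). Its other feature gave the same directions with smaller steps at 96 h, of 0.97 ± 0.22 at 48 h (0.0119), -2.54 ± 0.22 from 48 h to 96 h (0.000141) and 1.97 ± 0.22 from 96 h to 144 h (0.000784).

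**Figure D2:**
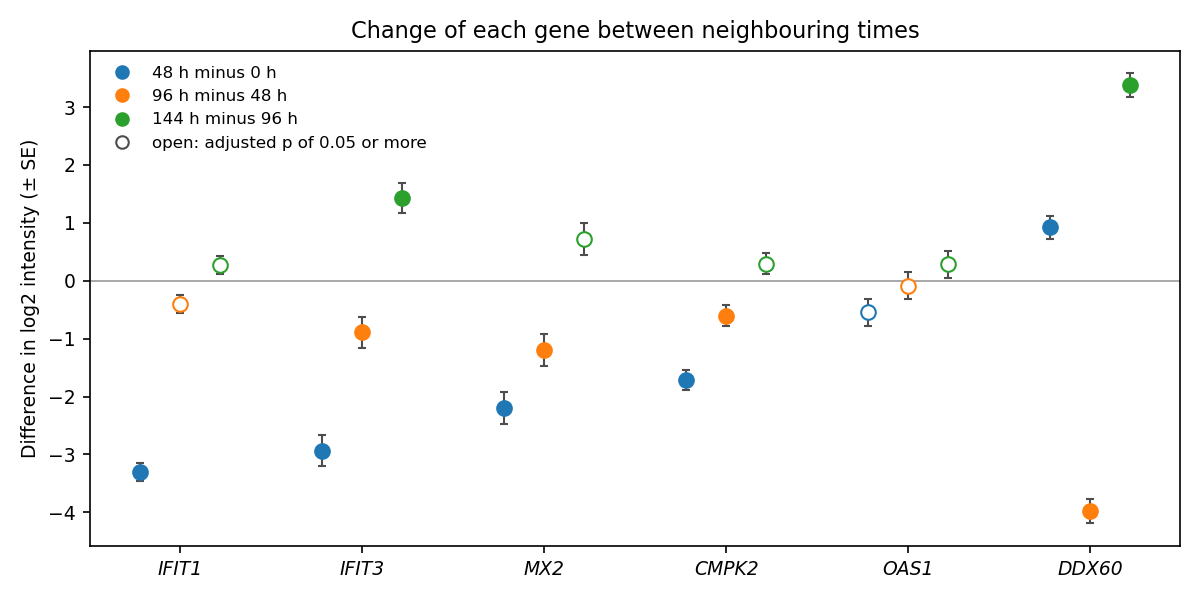
Difference in log2 intensity (± SE, 2 arrays per time) between each time and the one before it, for the 6 genes. Filled points have a limma adjusted p below 0.05 and open points do not. IFIT1, IFIT3, MX2 and CMPK2 have their largest fall in the first 48 h, from -3.31 to -1.72, whereas DDX60 rises there by 0.92 and falls by 3.98 in the next step.

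At 96 h all 6 genes were at their lowest mean, and for IFIT3 and DDX60 the test placed 96 h below both 48 h and 144 h. Across all features, 30.5% had their lowest mean at 96 h and 35.5% had their highest at 0 h, which held for 5 of the 6 genes. Against 0 h, 5 of 6 were called lower at 96 h, the exception being OAS1, where 22.3% of all features were called lower and 19% higher. From 48 h to 96 h, IFIT3, MX2, CMPK2 and DDX60 were called lower, 4 of 6 against 16% of all features, with 13.4% called higher. The median difference from 0 h at 96 h was -3.23 over the 6 genes and -0.03 over all features.

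After 96 h, IFIT3 and DDX60 rose, and the other 4 genes did not pass the test. All 6 differences between 144 h and 96 h were above 0, from 0.27 for IFIT1 to 3.38 for DDX60, with a median of 0.51 and -0.01 over all features. The 2 of 6 that were called stand against 12.1% of all features called higher and 10.1% lower. Against 0 h, IFIT1, IFIT3, MX2 and CMPK2 were still called lower at 144 h, 4 of 6 against 16.7% of all features, with 15.4% called higher. The comparisons against 0 h share the same 0 h arrays.

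None of the 6 was called between 48 h and 144 h by limma, where 8.64% of all features were called, 4.32% in each direction, and 1, DDX60, had an unadjusted p below 0.05. The differences ran from -0.60 ± 0.21 for DDX60 to 0.54 ± 0.26 for IFIT3. Without 144 h replicate 2, IFIT3 was called higher at 144 h than at 48 h by 1.02 (adjusted p = 0.00317) and DDX60 lower by 0.93 (difference -0.93, 0.00706). The 144 h arrays did not differ in one direction. IFIT1, IFIT3 and MX2 were higher on replicate 1, and CMPK2, OAS1 and DDX60 on replicate 2.

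Over the 8 arrays, IFIT1, IFIT3, MX2 and CMPK2 followed each other, with Pearson correlations of 0.918 to 0.970 in their 6 pairs. OAS1 correlated with those 4 at 0.590 to 0.696, and DDX60 with the other 5 at 0.256 to 0.452. These values describe 8 arrays that fall into 4 times, and the 0 h arrays weigh heavily in them.

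The mean of the 6 genes, each centred on its own mean, was 1.51 and 1.60 above its average on the 0 h arrays. The genes outside the 6 whose values were most like that mean were BICRAL, a chromatin remodelling subunit gene, at a Pearson correlation of 0.999, then TSPYL1, APOF, RAD51AP1, APH1B and PLA2G7, at 0.994 to 0.995. They were taken from 3034 genes whose time means spanned at least 1 on the log2 scale. The mean of the 6 does not describe each member alike. DDX60 correlated with the mean of the other members at 0.389 and OAS1 at 0.656. After 48 h DDX60 had the largest steps of the 6, -3.98 to 96 h and 3.38 to 144 h, and so weighs heavily there. APOF encodes an apolipoprotein, RAD51AP1 a protein of homologous recombination, APH1B a subunit of gamma-secretase, and PLA2G7 the platelet-activating factor acetylhydrolase. PLA2G7 measured 9.66 and 9.75 at 0 h, 7.83 and 8.02 at 48 h, 6.32 and 6.39 at 96 h and 7.69 and 7.91 at 144 h. None of these 6 was on a list of interferon genes used here.

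**Figure D3:**
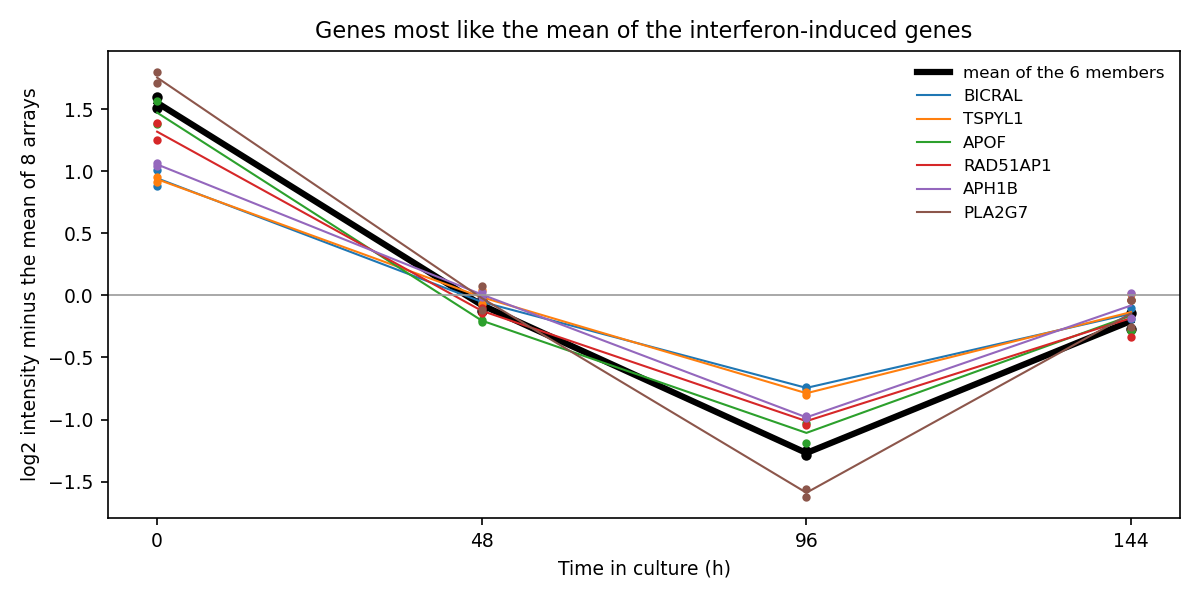
Log2 intensity minus the mean of the 8 arrays against time (h), for the mean of the 6 interferon-induced genes (black) and the 6 genes most like it (colours). Points are single arrays and lines join means of 2 arrays. All 7 lines are highest at 0 h and lowest at 96 h, and the correlations with the black line are 0.994 to 0.999 over 8 arrays. The 6 genes were picked by these correlations, so a shared shape follows from the choice. After 48 h DDX60 weighs heavily in the black line.

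The neighbours of these genes on the chromosome moved as follows. MX1, which encodes the other Mx GTPase, measured 9.85 and 9.96 at 0 h, 8.31 and 8.49 at 48 h, 6.87 and 6.85 at 96 h and 7.91 and 8.01 at 144 h. Like MX2 it fell at 48 h, with a difference of -1.50 ± 0.12 (limma adjusted p = 4.57e-05), and was lowest at 96 h. It rose by 1.10 ± 0.12 from 96 h to 144 h (0.000636), where MX2 changed by 0.72 ± 0.28 (0.109). RSAD2, which encodes the antiviral enzyme viperin and lies next to CMPK2, measured 5.17 and 5.08 at 0 h and 3.26 to 3.40 on the 6 later arrays. Its fall at 48 h was -1.76 ± 0.11 (1.41e-05). OAS2, which encodes another oligoadenylate synthetase, measured 8.16 and 8.26 at 0 h, 6.29 and 6.38 at 48 h, 6.49 and 6.58 at 96 h and 7.19 and 7.23 at 144 h. OAS2 was thus lowest at 48 h, fell there by 1.88 ± 0.11 (difference -1.88, 9.66e-06), and was called higher at 144 h than at 48 h, by 0.88 ± 0.11 (0.00229).

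The wider set of interferon-induced genes was looked at through a list of 64 further symbols, of which 32 had a named feature. At 48 h, 20 of the 32 were called lower and 1 higher, with a median difference of -0.62. At 96 h, 22 were lower and 3 higher (median -0.96), and at 144 h, 21 were lower and 1 higher (median -0.75), all against 0 h. Of all features, 14.8% were called lower and 15.2% higher at 48 h. The shares were 22.3% and 19% at 96 h, and 16.7% and 15.4% at 144 h. The median over all features lay between -0.03 and -0.05 in these comparisons. The list counts features near background too, and it was drawn up with results of these data known. CXCL10, a chemokine gene, moved farthest, from 7.48 and 8.07 at 0 h to 3.22 and 2.79 at 48 h, and stayed between 2.58 and 2.87 afterwards, below the lower quartile. HERC5, which encodes the ligase for the ubiquitin-like protein ISG15, differed from 0 h by -2.19 ± 0.14 at 48 h, -3.35 ± 0.14 at 96 h and -2.67 ± 0.14 at 144 h (limma adjusted p = 1.55e-05, 1.04e-06 and 3.67e-06). USP18, which encodes the protease that removes ISG15 and damps receptor signalling, differed by -1.64 ± 0.15, -3.05 ± 0.15 and -1.98 ± 0.15 at the same times (0.000122, 2.53e-06 and 3.24e-05). The genes called higher, named after their values were seen, were TOR1B and IFITM1 at 96 h and PHF11 at all 3 times. PHF11 differed from 0 h at 48 h and 144 h by 0.41 ± 0.10 and 1.02 ± 0.10 (0.0177 and 0.000123).

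Around 96 h, most of the wider list was not called. From 48 h to 96 h, 9 of the 32 were called lower and 3 higher (PARP10, SHISA5 and TOR1B), with a median of -0.09, against 16% and 13.4% of all features. From 96 h to 144 h, 11 were called higher and 2 lower (TOR1B and IFITM1), with a median of 0.14, against 12.1% and 10.1% of all features. Without either 96 h array, 5 in place of 13 were called from 96 h to 144 h. Between 48 h and 144 h, 2 were called higher, OAS2 and PHF11, and the number called was 1 without 48 h replicate 1, 6 without 144 h replicate 1 and 5 without 144 h replicate 2. In all, 25 of the 32 had their highest mean at 0 h and 18 their lowest at 96 h. DTX3L, HELZ2, OASL, PNPT1 and TRIM21, named after their values were seen, were called in none of the 6 comparisons.

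**Figure D4:**
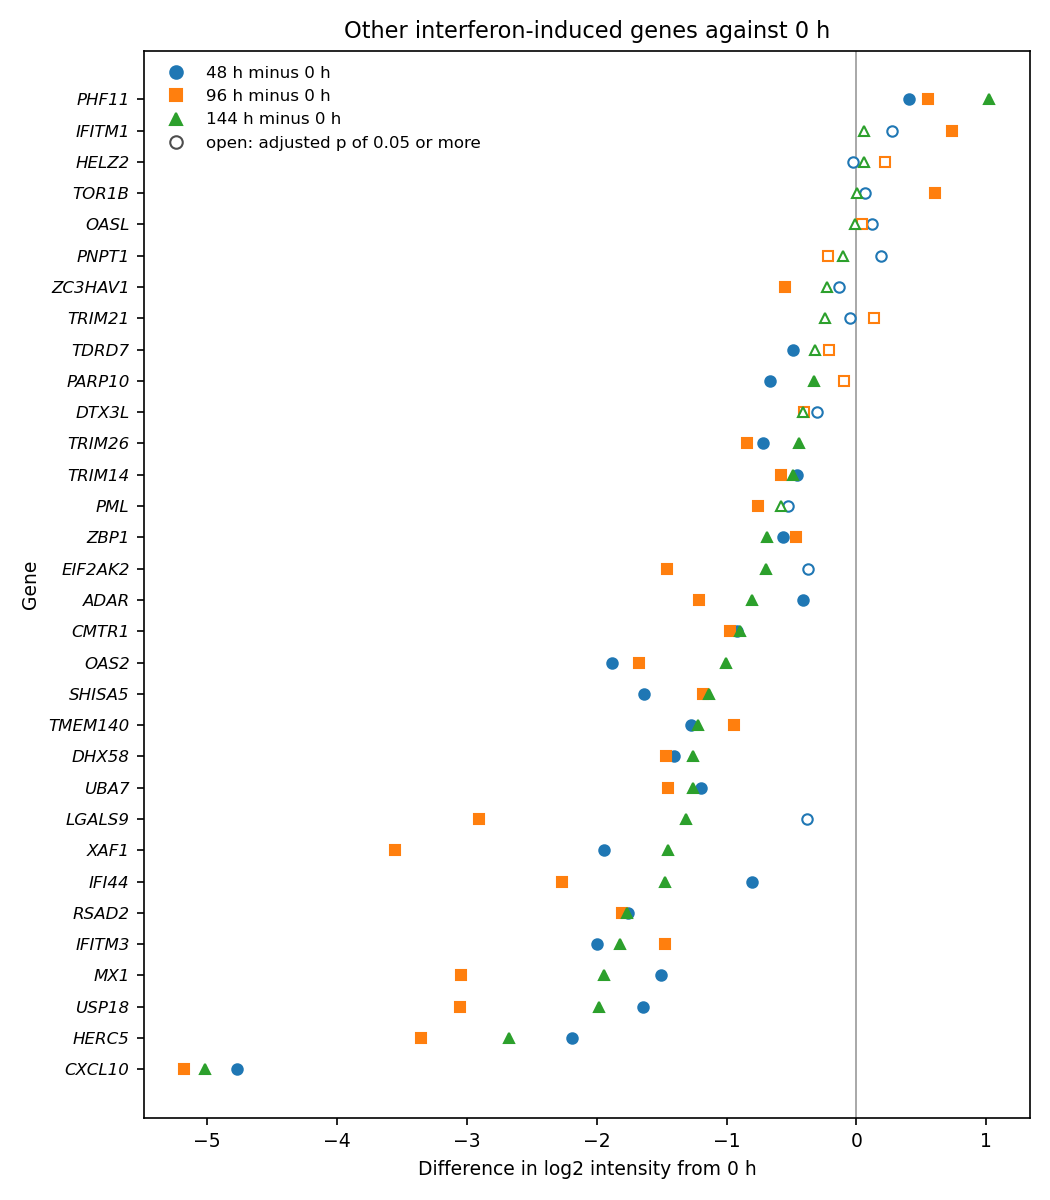
Difference in log2 intensity from 0 h at 48 h (circles), 96 h (squares) and 144 h (triangles) for the 32 other interferon-induced genes with a feature. Filled marks have a limma adjusted p below 0.05. Most marks lie left of 0, with CXCL10 at -4.77, -5.17 and -5.01 farthest left and PHF11 at 0.41, 0.55 and 1.02 on the right.

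Ligands of the pathway were mostly near the floor. Of 13 symbols, IFNB1, IFNE, IFNG and IFNK had a feature. The means of IFNB1, a type I interferon gene, lay between 2.25 and 2.50 at the 4 times and those of IFNG, the type II interferon gene, between 2.27 and 2.44, all below the lower quartile. IFNE, which encodes an epithelial type I interferon of the reproductive tract, measured 5.92 and 6.12 at 0 h, 7.39 and 7.07 at 48 h, 6.09 and 6.26 at 96 h and 6.01 and 5.77 at 144 h. It was higher at 48 h than at 0 h by 1.21 ± 0.16 (limma adjusted p = 0.000711) and stood at -1.06 ± 0.16 from 48 h at 96 h (0.00171).

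Receptor and signalling genes moved both ways, with 7 of 17 symbols measured. Against 0 h, 3 were called higher and 1 lower at 48 h, where 15.2% of all features were higher and 14.8% lower. At 96 h, 2 were higher and 3 lower (19% and 22.3%), and at 144 h, 3 higher and 2 lower (15.4% and 16.7%). IFNGR1, which encodes a chain of the interferon gamma receptor, rose by 1.28 ± 0.17 at 48 h and 1.37 ± 0.17 at 144 h (limma adjusted p = 0.000739 and 0.000404). JAK1 rose by 0.75 ± 0.14 and 1.09 ± 0.14 (0.00520 and 0.000610), and JAK2 by 0.48 ± 0.15 and 0.66 ± 0.15 (0.0423 and 0.0102). IRF9, the DNA-binding partner of STAT2, was lower, at -0.62 ± 0.12 and -1.01 ± 0.12 (0.00555 and 0.000358). STAT2 stood at -0.13 ± 0.12 at 48 h (0.499) and fell by 144 h, at -0.45 ± 0.12 (0.0244). IFNAR1, IFNAR2 and ISG15, without a named feature, were not analysed here.

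Among 14 measured genes of nucleic acid sensing, out of 24 symbols, 5 were called higher and 2 lower than 0 h at 48 h and again at 144 h, and 4 higher and 4 lower at 96 h. Of all features, 15.2% were called higher and 14.8% lower at 48 h. The shares were 15.4% and 16.7% at 144 h, and 19% and 22.3% at 96 h. The 5 genes called higher were IRF3, IKBKE, TLR3, TLR4 and MYD88 at both 48 h and 144 h. IFIH1, which encodes the RNA sensor MDA5, was lower by -0.87 ± 0.12 and -1.23 ± 0.12 (limma adjusted p = 0.000931 and 0.000107). IRF7, a transcription factor of interferon genes, was lower by -0.62 ± 0.11 and -0.58 ± 0.11 (0.00308 and 0.00363). TLR3, a receptor for double-stranded RNA, rose by 1.27 ± 0.12 and 1.06 ± 0.12 (0.000142 and 0.000310), MYD88, the adaptor of most Toll-like receptors, by 0.81 ± 0.11 and 1.37 ± 0.11 (0.000756 and 3.28e-05), and TLR4 by 0.60 ± 0.17 and 0.79 ± 0.17 (0.0293 and 0.00761). IRF7 was not lowest at 96 h, where it measured 5.25 and 5.31, above its 48 h and 144 h arrays. At 0 h it measured 5.45 and 5.46.

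Genes of the interferon gamma response and antigen presentation were mostly lower or not called. Of 19 measured out of 30 symbols, 5 were called lower and 1 higher at 48 h, against 14.8% and 15.2% of all features. At 96 h, 10 were lower and 1 higher (22.3% and 19%), and at 144 h, 11 lower and 2 higher (16.7% and 15.4%). Each count is against 0 h. The genes called higher, PSME2 at 48 h and 144 h and ICAM1 at 96 h and 144 h, encode a proteasome activator subunit and an adhesion molecule. IRF1, a transcription factor of that response, fell by 1.08 ± 0.12 at 48 h (difference -1.08, limma adjusted p = 0.000318). TAP1 and TAPBP, which load peptides onto class I molecules, differed by -0.81 ± 0.16 and -0.72 ± 0.21 at 48 h (0.00625 and 0.0322). SLA-DRA, a class II chain, measured 7.75 and 8.05 at 0 h, 7.07 on both 48 h arrays, 3.50 and 3.41 at 96 h and 4.74 and 6.02 at 144 h. Its fall from 48 h to 96 h was -3.61 ± 0.35 (0.000211). ICAM1 rose by 1.38 ± 0.14 at 144 h (0.000146).

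**Figure D5:**
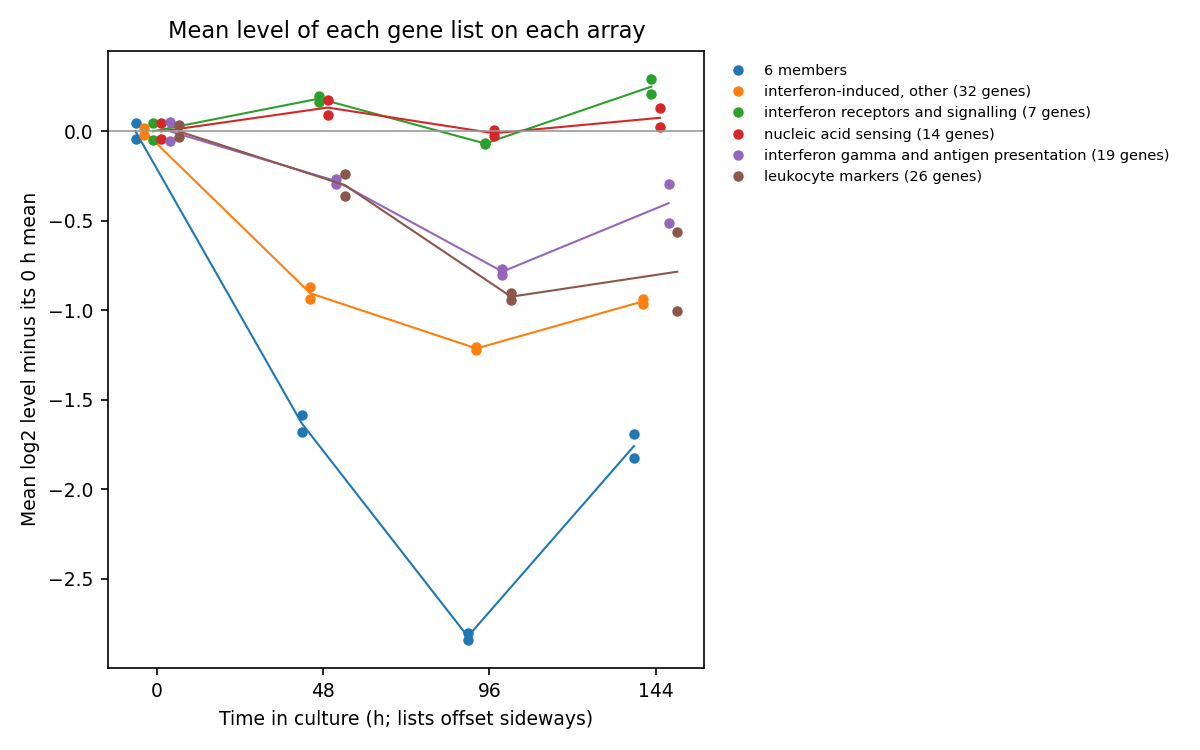
Mean log2 level of each gene list on each array, minus its own mean at 0 h, against time (h). Points are single arrays, offset sideways by list, and lines join the means of 2 arrays. The means of the 6 genes and of the 32 other interferon-induced genes are lower at 48 h than at 0 h. Those of signalling and sensing genes stay near 0. That of the 26 leukocyte markers is lower at 48 h than at 0 h and lower again at 96 h. Before its 0 h mean is subtracted, the leukocyte mean is 4.89 and 4.96 at 0 h and 4.56 and 4.69 at 48 h. It is then 4.02 and 3.98 at 96 h, and 3.92 and 4.36 on the 144 h arrays.

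Markers of other cells were measured at the same times. Of 26 leukocyte markers measured, 1 (LYZ) was called higher and 4 (CD2, MRC1, MSR1 and NKG7) lower at 48 h, where 15.2% of all features were higher and 14.8% lower. At 96 h, 4 were higher and 14 lower (19% and 22.3% of all features), and at 144 h, 2 higher and 14 lower (15.4% and 16.7%), all against 0 h. Their summed linear intensity ranged over 1604 to 1714 at 0 h, 1361 to 1509 at 48 h, 899 to 994 at 96 h and 963 to 1138 at 144 h. CD79A had the highest level of the 26 on every array, with means of 9.17, 9.27, 8.78 and 9.01 at these times. It weighs most in the sum and moved little, so the sum understates the falls of dimmer markers such as C1QB. AIF1, ITGAM, S100A8 and S100A9 lay below the lower quartile on all 8 arrays. C1QB, a macrophage complement gene, measured 7.32 and 7.35 at 0 h, 6.31 and 6.22 at 48 h, 4.64 and 4.57 at 96 h and 4.17 and 5.77 at 144 h. C1QB and FCER1G (3.69 against 5.16) were lower on 144 h replicate 1 than on replicate 2, as were CMPK2, OAS1 and DDX60. IFIT1, IFIT3 and MX2 were higher there. Of the 26 leukocyte markers, LYZ, CD79A, GZMB, S100A8 and S100A9 were also higher on 144 h replicate 1, and the rest were lower. All 7 measured oocyte markers were called lower than 0 h at 48 h, 96 h and 144 h, with a median of -2.04 at 48 h. Of 4 endothelial markers, PECAM1 was called higher and KDR lower at each of these times, and of 4 red cell markers HBB was called lower. HBB lay below the lower quartile on all 8 arrays, at 2.91 and 2.88 at 0 h. Among 4 theca and stroma markers at 48 h, ACTA2 and NR2F2 were called higher and INSL3 lower. The part of these cells in the values of the 6 genes was not tested.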

How the data were processed

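The authors deposited log2 intensities of 8 arrays, processed by RMA (robust multi-array averaging) according to the submitters' processing notes. The program and its version are not given in the sources consulted. RMA gives all arrays nearly the same distribution, so it would hide a shift common to most transcripts. The values were used without a further normalization or filter. Groups came from the times in the sample titles, and no array batch was labelled, so such a batch and time cannot be told apart.

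GEO's platform annotation, which may be out of date, named the features, with 7 symbols updated through the gene identifier. Features that repeat one symbol (239) counted as named. Where a gene had several features, that with the highest mean over the 8 arrays was used. All 27558 features were fitted by a linear model of the 4 times with limma 3.58.1 in R 4.3.3 (4 residual and 3.98 prior degrees of freedom). All 6 pairs of times were tested, two-sided, and the 4 times together by an F test, with Benjamini-Hochberg adjustment over all features. The steps were checked on simulated data. The members and gene lists were chosen with earlier results of these data known. The genes named beside the members follow a rule: up to 4 per list with the largest difference at 144 h among those called at 48 h or 144 h, a fixed set of pathway genes, and the 6 genes most like the members' mean. Promoter motifs had been planned, but no sequence was at hand and none is shown. The alternatives tried were 3 normalizations, a filter on dim features, another variance model, fewer arrays, the replicate number as a block, stricter thresholds, the mean of a gene's features, and leaving out each array in turn.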

Additional observations from a re-analysis of the deposited data

How the results depend on the processing

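The falls of IFIT1, IFIT3, MX2 and CMPK2 against 0 h were called in all 224 values recomputed over the alternatives, with a largest adjusted p of 0.00781. Over all 6 genes and all alternatives, 624 of 660 recomputed differences kept their side of the threshold, 25 lost a call, 11 gained one, and no called difference changed sign. With an array left out, the members called numbered 4 to 6 at 48 h, 5 to 6 at 96 h and 4 to 5 at 144 h against 0 h, 1 to 5 from 48 h to 96 h, 1 to 4 from 96 h to 144 h, 0 to 2 from 48 h to 144 h, and 5 to 6 over any time. From 48 h to 96 h the lowest count, 1, came without 48 h replicate 2 or either 96 h array. In the same refits the other interferon-induced genes called numbered 15 to 24, 21 to 26 and 18 to 22 against 0 h, and 8 to 14, 5 to 11 and 1 to 6 between later times in that order. The features called numbered 5577 to 10258, 8215 to 13076 and 6566 to 10186 against 0 h, and 4198 to 10294, 2437 to 7320 and 1070 to 3879 between later times.

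From 48 h to 96 h, the members called dropped from 4 to 1 at an adjusted p below 0.01 and to 2 with a difference of at least 1 on the log2 scale. At an adjusted p below 0.01, the features called were 5147 in place of 8260 at 48 h, 4688 in place of 8089 from 48 h to 96 h, 3033 in place of 6115 from 96 h to 144 h and 1120 in place of 2381 from 48 h to 144 h, and the other interferon-induced genes from 96 h to 144 h were 6 in place of 13. With a difference of at least 1, the features were 3038, 5147 (of 11375) and 3676 (of 8845) against 0 h, and 2669, 1710 and 865 between later times. The other interferon-induced genes were then 12 (of 21) at 48 h, 15 (of 25) at 96 h, 7 (of 12) from 48 h to 96 h, 4 from 96 h to 144 h and 0 (of 2) from 48 h to 144 h. With only the 4 arrays compared, they were 8 from 96 h to 144 h and 1 from 48 h to 144 h, with 825 features in the latter. Without the 96 h arrays, 1576 features were called from 48 h to 144 h. With dim features left out, 4 other interferon-induced genes were called there. These settings test fewer arrays or features, or ask for more, by construction.

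The replicate number as a block gave the same counts of members called, 5, 5 and 4 against 0 h and 4, 2 and 0 between later times. Deviations of same-numbered arrays correlated at -0.0382 to 0.188 between times. With 2 arrays per time, these low values cannot decide whether same-numbered arrays share a gilt, pool or culture. The 2 arrays per time limit what can be called.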
